A study of Mus musculus with 16 samples.

Results

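The canonical and linker histone genes were taken as the protein-coding genes whose symbols are H1f, H2ac, H2bc, H3c or H4c followed by a number, which gave 69 of the 46320 genes in the count table. They comprised 11 genes of linker histone H1, 17 of H2A, 17 of H2B, 12 of H3 and 12 of H4. By position, 54 lay on chromosome 13, 10 on chromosome 3, 2 on chromosome 6, 2 on chromosome 15 and 1 on chromosome 11 of the GRCm39 mouse genome. The rule uses the name and type of a gene and no measured value, although it was set with earlier results of these data known.

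RNA-seq was performed on motoneurons that had been panned on p75NTR, a neurotrophin receptor of the cell surface, from lumbar cords of mouse embryos at day 13. Microfluidic chambers kept the compartments apart, so that axons crossed into a compartment separate from the cell bodies and dendrites. CNTF at 5 ng/ml was present on both sides and BDNF at 20 ng/ml in the axonal compartment only. There were 4 groups of 4 libraries, the somatodendritic and the axonal compartment of +/+ (WT) and of Hnrnpr-/- (KO) motoneurons. Hnrnpr-/- mice carried a CRISPR/Cas9 deletion of the first exons of Hnrnpr in every cell, not only in motoneurons, and were kept on a C57Bl/6 background. The comparisons ask how histone transcripts differ between the compartments and between the genotypes. Levels are given as CPM, that is, counts scaled to the library size after TMM adjustment, and the spread as the SD over 4 libraries.

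Canonical histones are the core proteins H2A, H2B, H3 and H4, which wrap DNA into nucleosomes, and most H1 proteins bind the DNA where it enters and leaves the nucleosome. Their genes stand in clusters, are transcribed mainly in S phase, and give mRNAs that as a rule end in a conserved stem-loop in place of a poly(A) tail. Neurons have left the cell cycle and take histones chiefly from replacement genes, which are transcribed outside S phase into polyadenylated mRNAs. Among the linker histones, H1f0 and H1f10 are of that kind.

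The stem-loop was found in most of these genes, often in near-identical form, but not in H1f0, H1f10 and H2bc21. Within 400 bases after the stop codon, the letters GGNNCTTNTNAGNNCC were found on the coding strand in 59 of the 69 genes, or 85.5%, against 77 of 21646 protein-coding genes, or 0.356%. The first bases lay 22 to 59 bases after the stop codon with a median of 32. The following stem-loops were read from the GRCm39 reference sequence, 5′ to 3′ on the gene's strand, with the 16 bases of the stem-loop in capitals and 4 flanking bases on each side. They are shown, for 1 gene or more of each family, because a stem-loop end as a rule sets canonical histone mRNAs apart from polyadenylated ones. In H2bc4 and H3c6 the annotated transcript runs past the stem-loop.
H1f2: aaaaGGCTCTTTTCAGAGCCacca
H2ac23: aaaaGGCTCTTTTCAGAGCCatcc
H2ac19: aaaaGGCTCTTTTCAGAGCCaccc
H2bc4: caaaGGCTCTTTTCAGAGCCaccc
H3c4: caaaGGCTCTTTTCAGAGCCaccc
H3c6: aaacGGCTCTTTTAAGAGCCacct
H4c4: caaaGGCCCTTTTCAGGGCCacta
H4c9: taaaGGCCCTTTTTAGGGCCacca
The capitals stand at chr13:23923495-23923510 on the plus strand for H1f2, chr13:21995068-21995083 (plus) for H2ac23, chr3:96147100-96147115 (minus) for H2ac19, chr13:23868630-23868645 (plus) for H2bc4, chr13:23760418-23760433 (plus) for H3c4, chr13:23746077-23746092 (minus) for H3c6, chr13:23765933-23765948 (plus) for H4c4 and chr13:22225136-22225151 (minus) for H4c9. There were 8 distinct 16-base forms. The form of H1f2, H2ac23, H2ac19, H2bc4 and H3c4 was held by 36 genes of the families H1, H2A, H2B and H3, and that of H3c6 by 9 genes. The form of H4c4 was held by 7 H4 genes and that of H4c9 by 2.

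The annotated transcript ended within 50 bases of the stem-loop in 56 of the 59 genes and ran past it in H3c6, H2bc6 and H2bc4. Among the 10 genes without the stem-loop in that window were H1f0, H1f10, H2bc21 and H2ac22, while H2bc22, H2bc23 and H2bc24 held it after their first coding exon. A poly(A) signal, AATAAA or ATTAAA, stood in the same window of 20 of the 69 genes, or 29.0%, against 47.5% of all protein-coding genes. These matches describe the letters only.

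**Figure D1:**
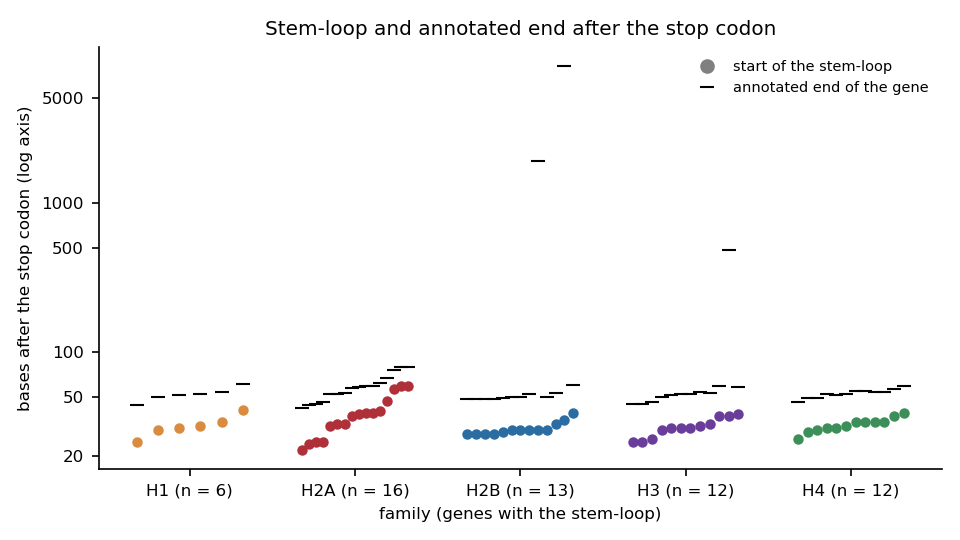
Distance in bases after the stop codon, on a log axis, of the start of the stem-loop (points) and of the annotated end of the gene (dashes), for the 59 genes with a stem-loop grouped by family. The stem-loops lie 22 to 59 bases after the stop codon, and 3 genes (H3c6, H2bc6 and H2bc4) have an annotated end far beyond it.

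Near-identical copies limit what can be said of single genes. The median identity between coding sequences of 2 members was 96.2% for H2A, 92.5% for H2B, 97.2% for H3 and 94.7% for H4, against 49.5% for H1. The coding sequences of H3c14 and H3c15, of H2ac18 and H2ac19, of H2ac23 and H2ac24, of H4c17 and H4c18 and of H2bc23 and H2bc24 were identical. Reads that align to several genes were counted as fractions by the authors, and 88.1% of the members' values above 0 were not whole numbers, against 39.1% over all genes. Values of core histone genes therefore partly share reads, and the family sums carry less of this uncertainty than single genes. Only 13 members shared no run of 100 coding bases with another member, among them H1f0, H1f10, H1f5, H2bc21 and H4c4.

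Total counts per library were between 22024923 and 34864151, of which the 69 genes took 2657 to 18136. In Hnrnpr-/- libraries Hnrnpr itself stood at 0.545 to 1.16 CPM, against 120.0 to 422 CPM in +/+ libraries. Of 7 motoneuron markers 5 were tested, of which Chat and Slc18a3, which make and load acetylcholine, were lower in +/+ axons by edgeR (log2 fold change -5.50 and -3.88), as they were in -/- axons (-3.72 and -2.10). Isl1, Slc5a7 and Prph did not pass in either genotype, and Mnx1 and Isl2 were too low to test. All 5 pan-neuronal markers were lower in axons of both genotypes, where 27.4% of all genes were lower in +/+ and 26.8% in -/- axons. A pair of axonal libraries, +/+ replicate 4 and -/- replicate 1, stood apart by low H2A levels. Fits without them are given where they changed the call of a gene still tested, and for some of the values that moved.

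The share of all counts that fell on the 69 genes was 0.0149% in the +/+ somatodendritic group and 0.0161% in the -/- one, against 0.0429% and 0.0480% in the axonal groups. H1f0 held most of the somatodendritic signal. Without H1f0 and H1f10, the summed level of the other members was 26.7 ± 7.01 CPM in +/+ and 27.8 ± 9.85 CPM in -/- somatodendritic libraries and 226 ± 46.7 and 244 ± 72.9 CPM in axonal ones (SD, n = 4). Its axonal excess on the log2 scale was 3.10 ± 0.24 (SE) in +/+ and 3.17 ± 0.38 in -/- motoneurons.

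Of the 69 genes, 47 passed the expression filter (6 of 11 H1, 15 of 17 H2A, 16 of 17 H2B, 4 of 12 H3 and 6 of 12 H4). Only 15 of them passed it by their somatodendritic libraries, namely H1f0, H1f2, H1f4, H1f10, H2ac18, H2ac19, H2ac23, H2ac24, H2bc4, H2bc6, H2bc8, H2bc21, H2bc23, H2bc24 and H4c4. The other 32 passed through their axonal libraries alone, so that a difference in these was built into the choice, and their values are given as a description. The 22 not tested were H1f1, H1f6, H1f7, H1f8, H1f9, H2ac1, H2ac21, H2bc18, H3c1, H3c2, H3c3, H3c7, H3c8, H3c10, H3c11, H3c13, H4c1, H4c2, H4c6, H4c11, H4c12 and H4c14. None of these exceeded 27 counts in any library or a group mean of 0.275 CPM. The germ-line linker histone gene H1f7 was at 0 counts in each library after rounding, which allows up to 3 counts. H3 signal was low, with 8 of 12 genes untested.

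Mean summed levels were higher in axons than in the somatodendritic compartment for every family, over all of its genes. In +/+ motoneurons edgeR called 42 of the 47 genes higher in axons and 0 lower, where 30.1% of all genes tested were called higher and 27.4% lower. In Hnrnpr-/- motoneurons 45 of 47 were higher and 0 lower, against 27.5% and 26.8% of all genes. These counts include the 32 genes whose difference the filter built in. Among the 15 genes that passed by their somatodendritic libraries, 13 were higher in each genotype (3 of 4 H1, 4 of 4 H2A, 5 of 6 H2B, 1 of 1 H4 and no H3 gene), with a median log2 fold change of 2.40 in +/+ and 2.44 in -/- axons. Over the 47 genes the median was 3.06 in +/+ (range -0.17 to 4.23), where that of all genes was 0.07. In -/- motoneurons the median over the same 47 was 2.94, with a range of 0.02 to 4.72 and -0.00 over all genes. The upper end is H2ac15, which had 1 count in the 4 -/- somatodendritic libraries together, so its fitted value depends on the prior count, and is 6.50 without -/- somatodendritic replicate 4.

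Among the same 15 genes, all 4 axonal libraries lay above all 4 somatodendritic ones for 10 in +/+ and for 10 in -/- motoneurons, against 24.8% and 24.1% of all genes tested. The 5 genes not called in +/+ axons were H1f10, H2ac20, H2bc21, H4c3 and H4c17, and the 2 not called in -/- axons were H1f10 and H2bc21. Without the pair of libraries that stood apart, 39 of 46 genes were higher in +/+ and 43 of 46 in -/- motoneurons. These counts also include genes that passed the filter through their axonal libraries alone. The share of all genes called in that fit is not given here. In bulk RNA, fewer cells of a type and less RNA per cell cannot be told apart. The compartments also differed in reaction volume and PCR cycles of library preparation, and what part these had was not tested.

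**Figure D2:**
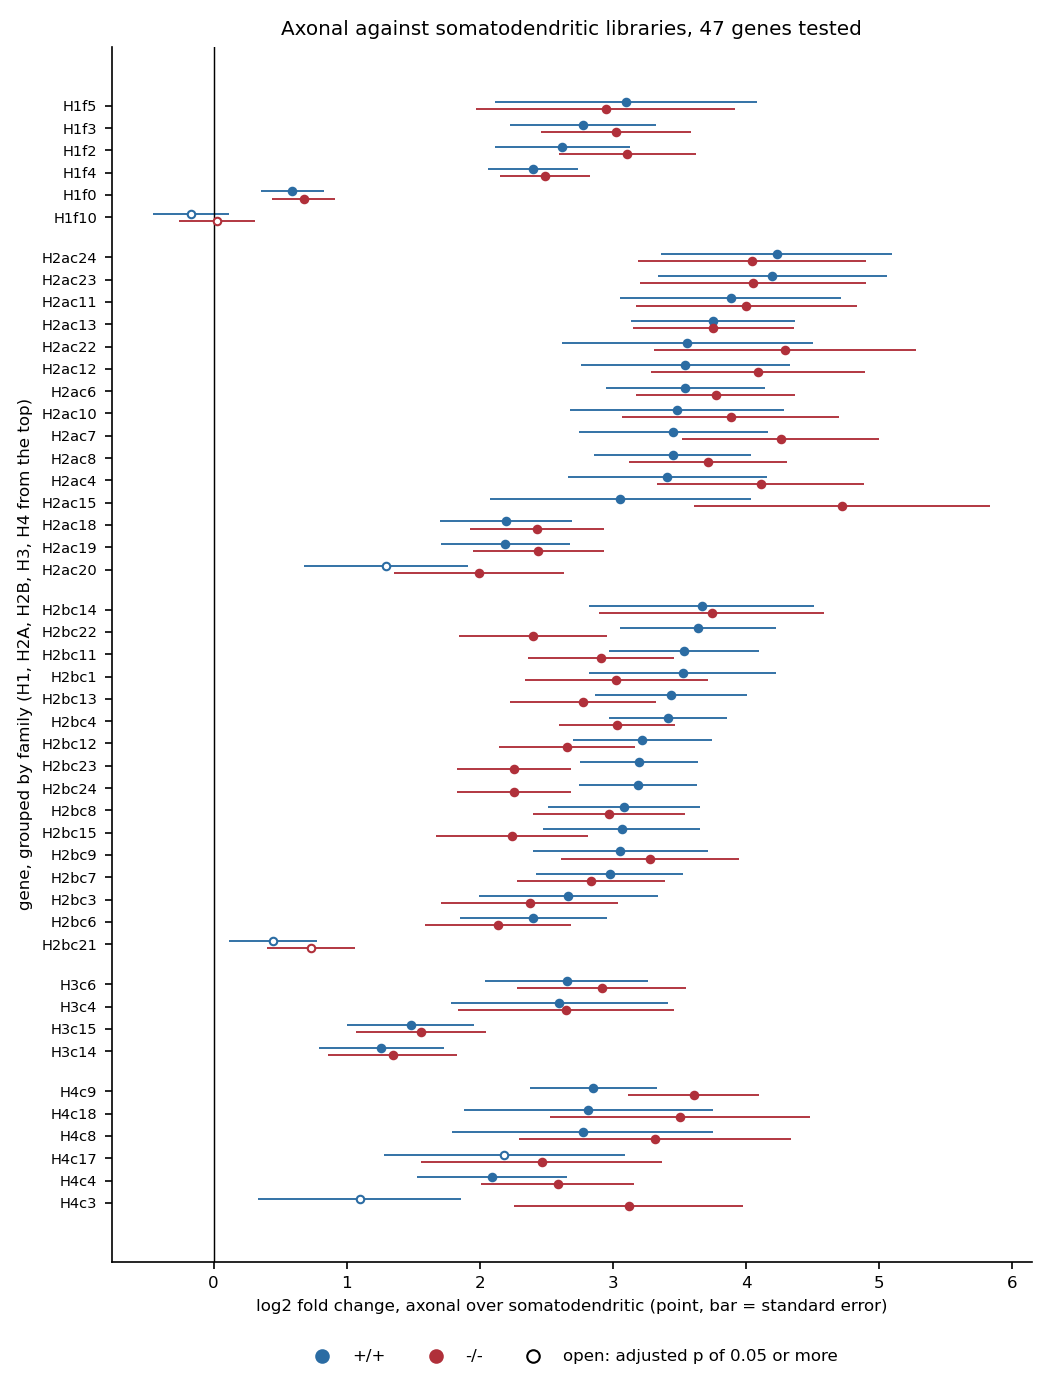
Log2 fold change of axonal over somatodendritic libraries for the 47 genes tested, grouped by family and ordered within it by the +/+ value. Points are edgeR estimates, blue for +/+ and red for -/-, bars are 1 standard error, and open points have an adjusted p of 0.05 or more. H1f10, H1f0 and H2bc21 lie below 1, and most H2A genes lie above 3.

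**Figure D3:**
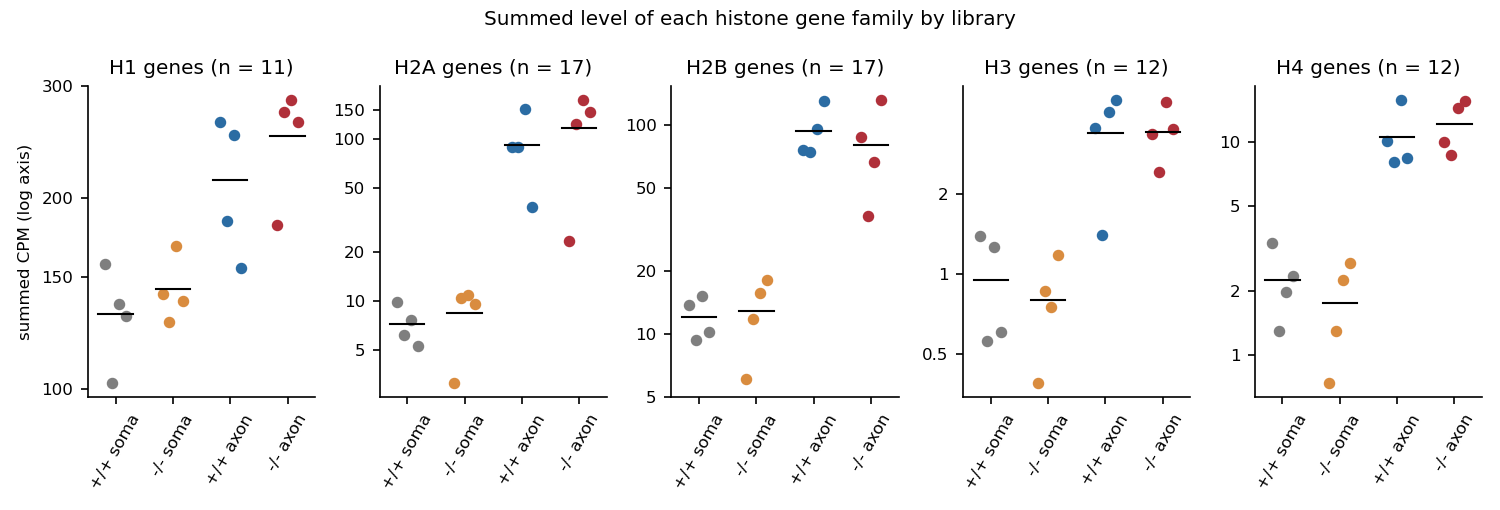
Summed CPM of each histone gene family on log axes, 1 point per library with the group mean as a line, n = 4 libraries in each group. The axonal points lie above the somatodendritic ones in H2A, H2B, H3 and H4, with 1 low +/+ and 1 low -/- library in H2A, and the +/+ H1 groups overlap.

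Linker histones were split by kind. The summed H1 level in somatodendritic libraries was at 157, 102, 136 and 130.2 CPM in +/+ and at 141, 128, 168 and 138 CPM in -/- libraries. Axonal libraries held 264, 184, 252 and 155 CPM in +/+ and 181, 274, 285 and 264 CPM in -/- motoneurons. The +/+ difference was 0.68 ± 0.23 and the -/- difference 0.79 ± 0.17 on the log2 scale (SE). H1f0 (chr15:78912412-78914704, plus strand), the replacement linker histone of resting and differentiated cells, made up most of this sum. Levels of H1f0 were 141, 92.3, 125 and 122 CPM in +/+ and 131, 118, 156 and 126 CPM in -/- somatodendritic libraries. They were 224, 161, 216 and 122 CPM in +/+ and 124, 249, 251 and 227 CPM in -/- axonal libraries. The groups overlapped in both genotypes. H1f0 rose in axons by 0.59 ± 0.24 on the log2 scale in +/+ (adjusted p = 0.0426) and by 0.68 ± 0.24 in -/- motoneurons (adjusted p = 0.0242). Without the pair of libraries that stood apart the values were 0.74 (adjusted p = 0.0025) and 0.87 (adjusted p = 0.000864). The +/+ call was lost without any 1 of +/+ somatodendritic replicates 2 to 4, -/- somatodendritic replicates 3 and 4, +/+ axonal replicates 1 and 3 and -/- axonal replicate 4, at adjusted p values of 0.0516 to 0.13. The -/- call was lost without any 1 of -/- somatodendritic replicates 2 and 4 and -/- axonal replicates 2 to 4, at adjusted p values of 0.0526 to 0.0688. The other replacement linker histone, H1f10 (chr6:87957403-87958464, minus strand), did not pass the test. H1f10 stood at 10.6, 5.99, 6.13 and 6.52 CPM in the 4 +/+ somatodendritic libraries and at 6.67, 6.71, 6.74 and 7.12 CPM in the -/- ones. Its axonal values were 6.44, 6.65, 8.71 and 4.28 CPM in +/+ and 3.72, 7.70, 8.97 and 7.29 CPM in -/- libraries. Its log2 fold change was -0.17 ± 0.29 in +/+ (adjusted p = 0.638) and 0.02 ± 0.29 in -/- axons (adjusted p = 0.953).

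H1f2 and H1f4, which are replication-dependent, had larger fold changes, though the difference from H1f0 was not tested. Somatodendritic H1f2 was at 4.44, 2.97, 3.73 and 1.22 CPM in +/+ and at 2.84, 1.34, 3.73 and 3.26 CPM in -/- libraries. Axonal libraries held 26.2, 10.4, 17 and 22.9 CPM in +/+ and 47.5, 9.91, 17.5 and 21.5 CPM in -/- motoneurons. For H1f2 (chr13:23922790-23923514, plus strand), a major somatic linker histone with the stem-loop shown above, the lowest axonal library thus lay above the highest somatodendritic one. Its fold change was 6.15 in +/+ (log2 2.62 ± 0.51, adjusted p = 0.000643) and 8.62 in -/- motoneurons (log2 3.11 ± 0.52, adjusted p = 0.000282). Leaving out the pair of libraries that stood apart gave log2 values of 2.52 and 2.54 for H1f2. Levels of H1f4 were 1.03, 0.585, 0.870 and 0.376 CPM in +/+ and 0.741, 0.779, 0.419 and 0.729 CPM in -/- somatodendritic libraries. They were 3.92, 3.95, 4.87 and 2.54 CPM in +/+ and 3.66, 3.63, 3.36 and 4.41 CPM in -/- axonal libraries. H1f4, also a somatic linker histone, rose by 2.40 ± 0.34 in +/+ (adjusted p = 7.69e-05) and by 2.49 ± 0.34 in -/- axons (adjusted p = 8.37e-05), with no overlap between the compartments. H1f3 and H1f5, named after their values were seen, passed the filter through their axonal libraries alone and had log2 fold changes of 2.78 ± 0.55 and 3.10 ± 0.99 in +/+ axons. In -/- axons these were 3.02 ± 0.56 and 2.94 ± 0.97 (adjusted p = 0.000588 and 0.0189). H1f5 was at 0 CPM in -/- axonal replicate 1, and its -/- value was 2.35 with an adjusted p of 0.0619 with the replicate number as a block. Without -/- somatodendritic replicate 1 its adjusted p was 0.0505.

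H2A genes had the highest summed excess in axons, though its difference from the other families was not tested. The summed H2A level stood at 9.81, 6.18, 7.65 and 5.26 CPM in the 4 +/+ somatodendritic libraries and at 3.11, 10.4, 10.8 and 9.54 CPM in the -/- ones. Its axonal values were 89.1, 89.3, 152 and 37.8 CPM in +/+ and 23.5, 123, 174 and 147 CPM in -/- libraries. On the log2 scale the excess was 3.55 ± 0.46 in +/+ and 3.61 ± 0.80 in -/- motoneurons (SE), and 3.92 and 4.27 without the pair of libraries that stood apart. The most abundant were H2ac23 (chr13:21994537-21995088, plus strand) and H2ac24 (chr13:22017194-22017645, minus strand), whose identical coding sequences make their values 1 shared measurement. Somatodendritic H2ac23 was at 2.59, 1.35, 1.86 and 0.986 CPM in +/+ and at 0.412, 3.29, 3.48 and 2.7 CPM in -/- libraries. Axonal libraries held 30.8, 32.8, 56.9 and 5.78 CPM in +/+ and 3.25, 46.1, 64.8 and 49.8 CPM in -/- motoneurons. Low axonal values came from +/+ replicate 4 and -/- replicate 1, and these still exceeded all somatodendritic values in +/+ but not in -/- motoneurons. H2ac23 rose 18.4-fold in +/+ axons (log2 4.20 ± 0.86, adjusted p = 0.00098) and 16.6-fold in -/- axons (log2 4.05 ± 0.85, adjusted p = 0.00131). Leaving out the pair of libraries gave log2 values of 4.54 and 4.44 for H2ac23.

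A smaller excess was found for the chromosome 3 genes H2ac18 (chr3:96152813-96153368, plus strand) and H2ac19 (chr3:96147095-96147690, minus strand), which again share a coding sequence. Levels of H2ac19 were 1.12, 1.08, 1.33 and 1.13 CPM in +/+ and 0.741, 1.13, 0.922 and 1.16 CPM in -/- somatodendritic libraries. They were 4.19, 2.38, 4.16 and 10.6 CPM in +/+ and 6.51, 2.08, 3.39 and 9.52 CPM in -/- axonal libraries. The highest axonal values were those of +/+ replicate 4 and -/- replicate 4, and -/- replicate 1 came next, so the pair of libraries low in H2ac23 was not low here. Axonal H2ac19 rose by 2.19 ± 0.49 on the log2 scale in +/+ (adjusted p = 0.00167) and by 2.44 ± 0.49 in -/- motoneurons (adjusted p = 0.00101). Values of H2ac18 were close to these, at 2.20 ± 0.50 and 2.43 ± 0.50. Leaving out the pair of libraries gave 1.61 in +/+ and 2.33 in -/- axons for H2ac19, and 1.61 and 2.33 for H2ac18. The chromosome 3 gene H2ac20, in the test through its axonal libraries alone, did not pass in +/+ axons (log2 1.29 ± 0.62, adjusted p = 0.0845) and passed in -/- axons (1.99 ± 0.64, adjusted p = 0.0161). Its +/+ adjusted p was 0.0483 without +/+ axonal replicate 2 and 0.031 without +/+ somatodendritic replicate 4. Without -/- somatodendritic replicate 1 its -/- value was 2.73. Its -/- adjusted p was 0.0504 to 0.0604 without any 1 of -/- somatodendritic replicates 2 and 4 and -/- axonal replicate 4. Of the chromosome 13 genes that passed the filter through their axonal libraries alone, the largest +/+ values were those of H2ac11 (3.89 in +/+ and 4.00 in -/- axons), H2ac13 (3.75 and 3.76), H2ac22 (3.56 and 4.29), H2ac12 (3.55 and 4.09) and H2ac6 (3.54 and 3.77). Without +/+ somatodendritic replicate 1 the +/+ values were 4.51 for H2ac11, 4.58 for H2ac22 and 4.17 for H2ac12.

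H2B genes were led by H2bc4. The summed H2B level stood at 13.7, 9.43, 15.2 and 10.2 CPM in the 4 +/+ somatodendritic libraries and at 6.09, 11.8, 15.7 and 18.1 CPM in the -/- ones. Its axonal values were 75.6, 74.2, 96.0 and 131 CPM in +/+ and 88.0, 36.7, 66.2 and 132 CPM in -/- libraries. The axonal excess was 2.94 ± 0.25 in +/+ and 2.61 ± 0.52 in -/- motoneurons on the log2 scale (SE), and 2.77 and 2.52 without the pair of libraries low in H2A. The pair was not low here, and +/+ replicate 4 was the highest +/+ axonal library. Somatodendritic H2bc4 was at 5.94, 5.0, 8.94 and 4.32 CPM in +/+ and at 3.01, 6.23, 7.79 and 9.57 CPM in -/- libraries. Axonal libraries held 47.8, 57.5, 64.8 and 88.3 CPM in +/+ and 62.6, 21.5, 42.3 and 90.8 CPM in -/- motoneurons. For H2bc4 (chr13:23868182-23876805, plus strand), whose annotation runs past its stem-loop, no axonal library overlapped a somatodendritic one. It rose 10.7-fold in +/+ (log2 3.41 ± 0.44, adjusted p = 4.84e-05) and 8.17-fold in -/- axons (log2 3.03 ± 0.43, adjusted p = 0.000113). Levels of H2bc8 were 0.845, 0.360, 0.787 and 0.329 CPM in +/+ and 0.288, 0.433, 0.796 and 0.901 CPM in -/- somatodendritic libraries. They were 4.33, 1.73, 5.36 and 8.60 CPM in +/+ and 4.82, 1.99, 3.90 and 8.32 CPM in -/- axonal libraries. H2bc8 also showed no overlap between the compartments. It rose by 3.08 ± 0.57 in +/+ and by 2.97 ± 0.57 in -/- motoneurons (adjusted p = 0.000496 and 0.000739).

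The exception among H2B genes was H2bc21 (chr3:96128388-96131054, plus strand), which has no stem-loop in the window searched and shares no run of 100 coding bases with another member. H2bc21 stood at 3.17, 2.25, 2.53 and 4.18 CPM in the 4 +/+ somatodendritic libraries and at 1.44, 2.73, 2.81 and 3.78 CPM in the -/- ones. Its axonal values were 5.55, 3.35, 3.87 and 3.76 CPM in +/+ and 2.56, 4.53, 5.67 and 5.11 CPM in -/- libraries. The groups overlapped, and the log2 fold change was 0.45 ± 0.33 in +/+ (adjusted p = 0.257) and 0.73 ± 0.33 in -/- axons (adjusted p = 0.0726). With the replicate number as a block the -/- value was 0.75 with an adjusted p of 0.0309. It passed too without -/- somatodendritic replicate 4 (0.93, adjusted p = 0.0415), without -/- axonal replicate 1 (0.92, adjusted p = 0.0244) and without both libraries low in H2A (0.92, adjusted p = 0.0266). H2bc6, on the other hand, rose by 2.40 ± 0.55 and 2.13 ± 0.55 (adjusted p = 0.00208 and 0.00460). It overlaps the long non-coding RNA gene Gm33387 on the opposite strand. Among H2B genes that passed the filter through their axonal libraries alone, the largest +/+ values were those of H2bc14 (3.67 in +/+ and 3.74 in -/- axons), H2bc22 (3.64 and 2.40, or 4.36 in +/+ without +/+ somatodendritic replicate 1) and H2bc11 (3.54 and 2.91).

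H3 and H4 transcripts were scarce, and each tested H3 gene passed the filter through its axonal libraries alone, so the values of single H3 genes are a description. The summed H3 level in somatodendritic libraries was at 1.39, 0.561, 1.26 and 0.609 CPM in +/+ and at 0.390, 0.865, 0.752 and 1.18 CPM in -/- libraries. Axonal libraries held 3.56, 1.41, 4.06 and 4.51 CPM in +/+ and 3.36, 2.42, 4.46 and 3.51 CPM in -/- motoneurons. The H3 excess in axons was 1.81 ± 0.52 in +/+ and 2.18 ± 0.38 in -/- motoneurons (log2, SE). Levels of H3c4 were 0.181, 0, 0.0828 and 0.0469 CPM in +/+ and 0, 0.0866, 0.0838 and 0.215 CPM in -/- somatodendritic libraries. They were 0.443, 0.162, 0.520 and 0.979 CPM in +/+ and 0.407, 0.590, 0.960 and 0.530 CPM in -/- axonal libraries. H3c4 (chr13:23759937-23760440, plus strand), a canonical H3 gene, had log2 fold changes of 2.60 ± 0.82 and 2.65 ± 0.81 (adjusted p = 0.0136 and 0.0129), with overlap between the compartments in +/+ motoneurons only through +/+ axonal replicate 2. Its log2 value was 3.49 without +/+ somatodendritic replicate 1, and 3.36 in -/- axons without -/- somatodendritic replicate 4. H3c6 stood at 0.121, 0, 0.0828 and 0.0469 CPM in the 4 +/+ somatodendritic libraries and at 0.0412, 0.0433, 0.0419 and 0.0858 CPM in the -/- ones. Its axonal values were 0.238, 0.297, 0.455 and 0.765 CPM in +/+ and 0.552, 0.373, 0.390 and 0.398 CPM in -/- libraries. H3c6 (chr13:23745649-23746559, minus strand) had log2 fold changes of 2.65 ± 0.61 and 2.92 ± 0.63 (adjusted p = 0.00208 and 0.00162).

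The identical pair H3c14 and H3c15 on chromosome 3 gave the smallest H3 changes. H3c14 had log2 fold changes of 1.26 ± 0.47 in +/+ (adjusted p = 0.0326) and 1.35 ± 0.48 in -/- axons (adjusted p = 0.0288), but with the replicate number as a block the adjusted p values were 0.0978 and 0.0911. H3c15 stood at log2 fold changes of 1.48 ± 0.48 and 1.56 ± 0.49 (adjusted p = 0.0158 and 0.0144), with 0.0666 and 0.0599 under the block. The +/+ call of H3c14 was lost without any 1 of +/+ somatodendritic replicates 1, 2 and 4 and +/+ axonal replicates 1, 3 and 4 (adjusted p 0.0571 to 0.0731). Its -/- call was lost without any 1 of -/- somatodendritic replicates 1, 3 and 4 and -/- axonal replicates 1 and 3 (adjusted p 0.0606 to 0.0814). Without both libraries low in H2A its adjusted p was 0.0683 in +/+ and 0.0722 in -/- motoneurons.

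The summed H4 level in somatodendritic libraries was at 3.35, 1.31, 1.99 and 2.35 CPM in +/+ and at 0.740, 1.30, 2.26 and 2.7 CPM in -/- libraries. Axonal libraries held 10.1, 8.06, 15.8 and 8.43 CPM in +/+ and 10.0, 8.73, 14.6 and 15.6 CPM in -/- motoneurons. The H4 excess was 2.26 ± 0.36 in +/+ and 2.93 ± 0.47 in -/- motoneurons (log2, SE). Levels of H4c4 were 2.29, 0.540, 0.745 and 1.69 CPM in +/+ and 0.412, 0.779, 0.880 and 1.76 CPM in -/- somatodendritic libraries. They were 5.93, 5.71, 8.87 and 2.14 CPM in +/+ and 2.5, 5.68, 7.17 and 7.72 CPM in -/- axonal libraries. H4c4 (chr13:23765551-23765952, plus strand) was the most abundant H4 gene and shared no run of 100 coding bases with another member. Its lowest axonal libraries were the pair low in H2A, and +/+ axonal replicate 4 lay below the highest +/+ somatodendritic library. H4c4 rose 4.26-fold in +/+ (log2 2.09 ± 0.56, adjusted p = 0.00552) and 6.01-fold in -/- axons (log2 2.59 ± 0.58, adjusted p = 0.00190). H4c9 stood at 0.453, 0.315, 0.290 and 0.188 CPM in the 4 +/+ somatodendritic libraries and at 0.124, 0.173, 0.419 and 0.343 CPM in the -/- ones. Its axonal values were 2.28, 1.19, 3.38 and 2.39 CPM in +/+ and 2.67, 1.71, 4.86 and 3.85 CPM in -/- libraries. H4c9, which passed the filter through its axonal libraries alone, had log2 fold changes of 2.85 ± 0.47 in +/+ and 3.61 ± 0.49 in -/- axons (adjusted p = 0.000239 and 8.44e-05).

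Other H4 genes rested on few counts and passed the filter through their axonal libraries alone. H4c8 had log2 fold changes of 2.77 ± 0.98 in +/+ (adjusted p = 0.0248) and 3.32 ± 1.02 in -/- axons (adjusted p = 0.0129), and the +/+ call was lost without +/+ somatodendritic replicate 1, 2 or 4 (adjusted p 0.0576 to 0.0695). Its value was 4.62 without +/+ somatodendritic replicate 3, and 4.57 in -/- axons without -/- somatodendritic replicate 3. H4c17 had a log2 fold change of 2.19 ± 0.91 in +/+ (adjusted p = 0.0505) and 2.47 ± 0.90 in -/- axons (adjusted p = 0.0312), where the block gave 0.0698. Its +/+ adjusted p fell to 0.017 without +/+ axonal replicate 2, 0.0356 without -/- somatodendritic replicate 1, 0.0385 without -/- axonal replicate 2 and 0.0499 without -/- axonal replicate 1. Its -/- call was lost without any 1 of -/- somatodendritic replicates 1, 2 and 4 and -/- axonal replicates 1 and 4 (adjusted p 0.0583 to 0.0845) and without both libraries low in H2A (0.0784). The identical gene H4c18, singled out after its values were seen, had 2.82 ± 0.93 in +/+ (adjusted p = 0.0181) and 3.51 ± 0.98 in -/- axons (adjusted p = 0.00759). Its +/+ adjusted p was 0.089 under the block, 0.0583 without +/+ axonal replicate 4 and 0.0600 without both libraries low in H2A, where its log2 fold change was 2.19. For H4c3 the values were 1.1 ± 0.76 in +/+ (adjusted p = 0.231) and 3.12 ± 0.86 in -/- axons (adjusted p = 0.00701, or a log2 value of 4.44 without -/- somatodendritic replicate 3), and the difference between them did not pass the test (2.02 ± 1.15, adjusted p = 1).

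Per kilobase of exon, H1f0 had the highest level of any single member in each group. In +/+ axons it stood at 78.9 ± 21 CPM per kb, followed by H2ac24 with 69.6 ± 46.0, H2ac23 with 57.2 ± 37.8, H2bc4 with 28.0 ± 7.49 and H1f2 with 26.3 ± 9.60 CPM per kb (SD, n = 4). Neighbours in this order differed by less than the larger of their SDs. H2ac23 and H2ac24 split the reads of an identical coding sequence, so the place of H1f0 above them in axons holds only for the split values. In -/- axons the levels per kb were 92.8 ± 26.4 for H1f0, 90.7 ± 58.5 for H2ac24, 74.3 ± 47.9 for H2ac23, 33.3 ± 22.5 for H1f2 and 23.6 ± 12.8 for H2bc4. In +/+ somatodendritic libraries H1f0 stood at 52.3 ± 8.84 CPM per kb and H1f10, next in order, at 6.88 ± 2.07, which was outside their spread.

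Whether the changes differed by stem-loop or by chromosome was not tested, since most genes with a stem-loop passed the filter through their axonal libraries alone. How a library primed on poly(A) represents stem-loop mRNAs was not tested.

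The libraries +/+ axonal replicate 4 and -/- axonal replicate 1 differed from the other 6 axonal libraries in the balance of the families. The ratio of summed H2A to summed H2B was 0.714, 0.655, 0.504 and 0.514 in +/+ and 0.510, 0.881, 0.685 and 0.528 in -/- somatodendritic libraries. In +/+ axons it was 1.18, 1.20, 1.59 and 0.289, and in -/- axons 0.267, 3.36, 2.62 and 1.11. The 2 libraries are the only axonal ones below 1, and group means were 0.597 ± 0.104, 0.651 ± 0.173, 1.06 ± 0.549 and 1.84 ± 1.41 (SD, n = 4) in the same order. Since the pair was picked for low H2A, and near-identical H2A genes share reads, the following counts are a description. They were the 2 lowest of the 8 axonal libraries for 12 of 15 H2A, 3 of 6 H1, 1 of 6 H4, 0 of 16 H2B and 0 of 4 H3 genes tested, against 9.46% of all genes. The 3 H1 genes were H1f0, H1f10 and H1f5, and the H4 gene was H4c4.

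H2A and H2B genes often stand back to back, and the difference ran between close neighbours. In 12 pairs an H2A and an H2B gene were transcribed away from each other from starts 163 to 280 bases apart, with a median of 209.5 bases. Both genes were tested in 11 of these pairs. The pair of libraries was lowest for the H2A gene in 10 of the 11 and for the H2B gene in 0, against 9.46% of all genes, with the same reserve that the pair was picked for low H2A. The H2A genes share reads among near-identical copies, so the 10 are not 10 separate measurements. In H2ac23 and H2bc23, 167 bases apart, the H2A gene stood at 5.78 CPM in +/+ axonal replicate 4 and at 3.25 CPM in -/- axonal replicate 1, and at 30.8 to 64.8 CPM in the other 6 axonal libraries. H2bc23 stood at 3.73 and 2.12 CPM in the pair and at 0.994 to 3.05 CPM in the other 6.

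**Figure D4:**
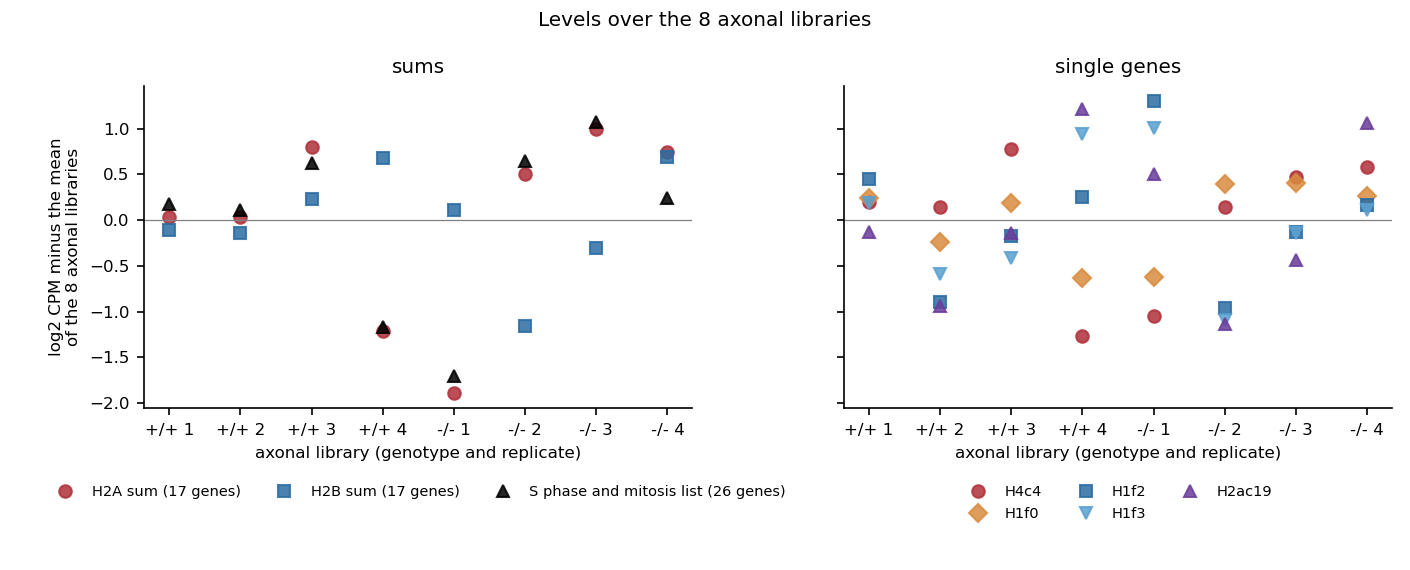
Levels over the 8 axonal libraries as log2 CPM minus the mean of the 8, for sums (left: 17 H2A genes, 17 H2B genes and the 26 genes of the S phase and mitosis list) and for single genes (right: H4c4, H1f0, H1f2, H1f3 and H2ac19). In +/+ replicate 4 and -/- replicate 1 the H2A sum, the S phase sum, H4c4 and H1f0 are low, while the H2B sum, H1f2, H1f3 and H2ac19 are above the mean.

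Loss of hnRNP R did not give a detectable difference in any of the 47 histone genes tested. In the somatodendritic compartment edgeR called 0 of the 47 genes, and 0 had an unadjusted p under 0.05, against 0.00501% and 0.601% of all genes. The log2 fold changes of -/- over +/+ lay between -1.35 and 0.72 with a median of -0.03. In axons the counts were again 0 and 0, against 0.0100% and 3.88% of all genes, with log2 fold changes of -0.52 to 0.67 and a median of 0.11. Leaving out the pair of libraries that stood apart gave an axonal median of 0.27 over 46 genes, with 0 called. The interaction of genotype and compartment was called for 0 genes, with 0 at an unadjusted p under 0.05, against 0.00% and 1.33% of all genes. DESeq2 called 0 members in each of these comparisons.

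The leading genes show what differences the data could hold. The fit used 1 spread per gene over both compartments. The common dispersion, a measure of the spread between libraries, was 0.0535 in somatodendritic and 0.303 in axonal libraries. Standard errors of single genes in the somatodendritic compartment therefore include axonal spread. H1f0 had a log2 fold change of 0.15 ± 0.24 in the somatodendritic compartment and 0.23 ± 0.23 in axons (SE). For H2ac23 the values were 0.53 ± 0.79 and 0.38 ± 0.74, for H2bc4 0.13 ± 0.41 and -0.25 ± 0.40, for H3c4 0.19 ± 0.91 and 0.24 ± 0.70 and for H4c4 -0.47 ± 0.56 and 0.03 ± 0.53. Family sums differed between -/- and +/+ axons by 0.24 ± 0.24 for H1, 0.17 ± 0.79 for H2A, -0.33 ± 0.43 for H2B, 0.12 ± 0.43 for H3 and 0.22 ± 0.30 for H4 (log2, SE). Somatodendritic sums differed by 0.14 ± 0.15, 0.11 ± 0.47, 0.01 ± 0.39, -0.25 ± 0.48 and -0.45 ± 0.51. Each of these family differences was no larger than about 1 standard error, so none was detectable with 4 libraries a group. With 1 library left out at a time, the axonal difference ranged from -0.20 to 0.83 for H2A and from -0.26 to 0.30 for H3, so these signs were not stable.

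**Figure D5:**
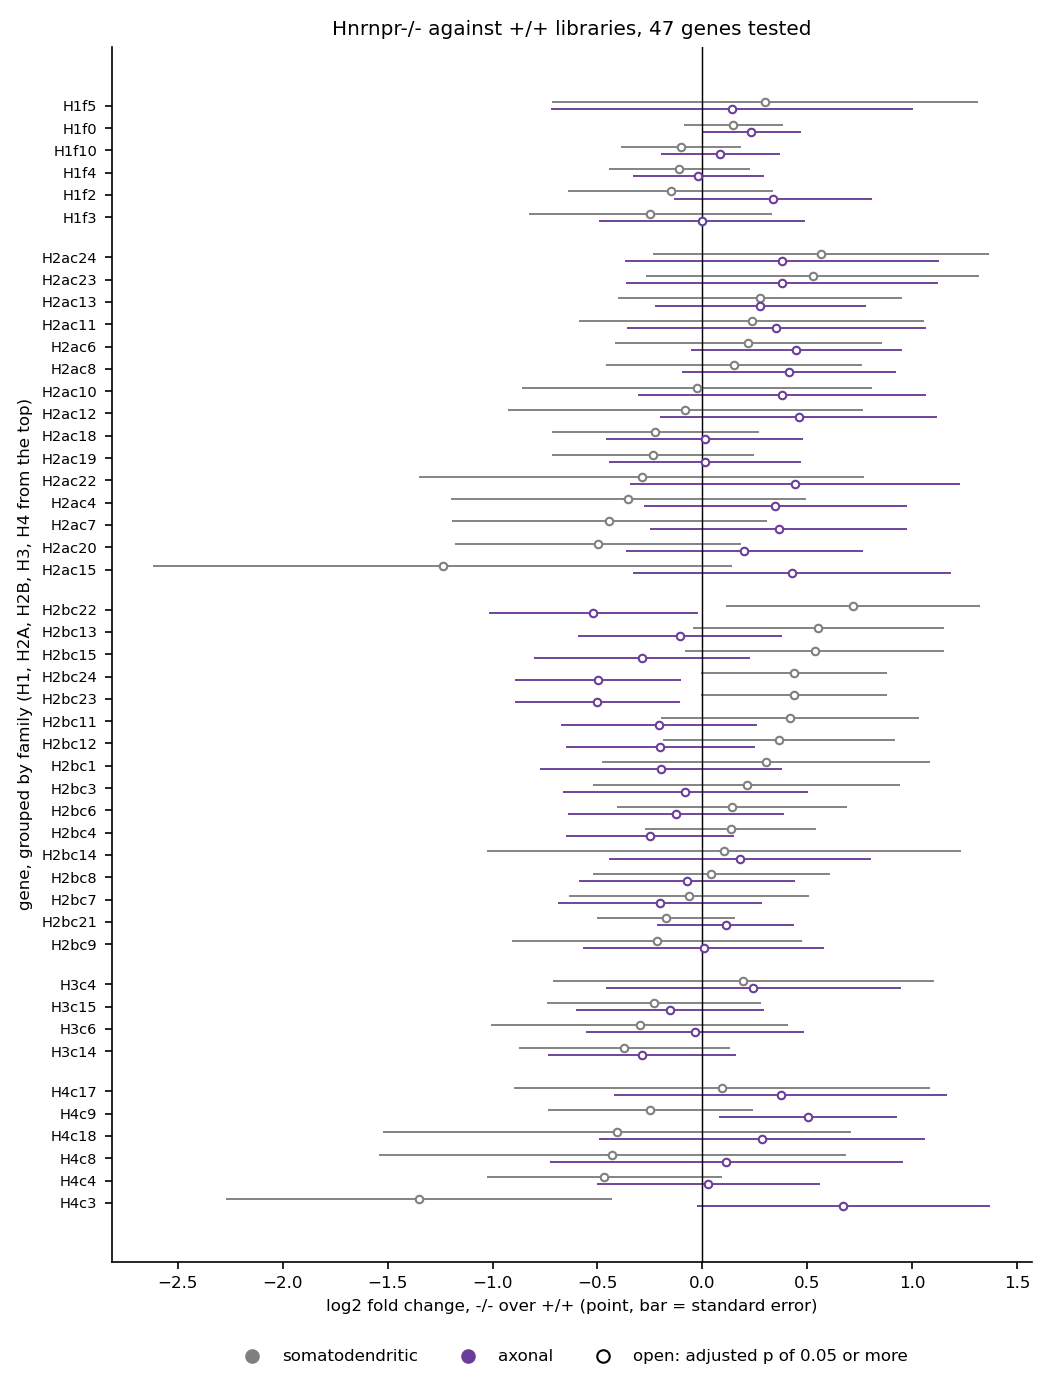
Log2 fold change of Hnrnpr-/- over +/+ libraries for the 47 genes tested, in the somatodendritic compartment (grey) and in axons (purple), with bars of 1 standard error. Each point is open, that is, its adjusted p is 0.05 or more, and the points lie between -1.35 and 0.72.

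Replacement histone genes, which are not members, were also higher in axons. Of 9, 8 were higher and 1 lower in +/+ motoneurons, and 7 were higher and 1 lower in -/- motoneurons, against 30.1% higher and 27.4% lower among all genes in +/+ and 27.5% and 26.8% in -/- motoneurons. Their median log2 fold change was 1.45 in +/+ and 1.23 in -/- axons. H2az2, coding for the variant H2A.Z.2, rose by 2.45 and 2.24, and Cenpa, the H3 variant of centromeres, by 3.16 and 3.28. H2aj rose by 1.32 and 1.23. The gene lower in both was Macroh2a2 (-0.76 and -0.69), while Macroh2a1 rose (1.11 and 1.20).

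Of 19 factors of histone gene transcription and mRNA processing, 3 were higher and 7 lower in +/+ axons, and 1 was higher and 6 lower in -/- axons. Over all genes 30.1% were higher and 27.4% lower in +/+, and 27.5% and 26.8% in -/- motoneurons. The U7 snRNP protein Lsm11 was lower by a log2 fold change of -2.28 in +/+ and -2.02 in -/- axons, and its partner Lsm10 was higher (0.70 and 1.02). The cleavage stimulation factor genes Cstf2 (-1.21 and -0.98) and Cstf2t (-0.97 and -1.03) were lower. Slbp, whose protein binds the histone stem-loop, had values of 0.31 (adjusted p = 0.279) and 0.16 (adjusted p = 0.588).

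Of 20 histone chaperone genes, 8 were higher and 4 lower in +/+ axons, and 9 were higher and 4 lower in -/- axons, against 30.1% and 27.4% of all genes in +/+ and 27.5% and 26.8% in -/- motoneurons. Hat1, which acetylates new H4, rose by 1.64 and 1.93, Asf1a, an H3-H4 chaperone, by 1.67 and 1.40, and Mcm2, a helicase subunit that also binds H3-H4, by 2.11 and 2.29. Hira, the chaperone that deposits replacement H3.3 outside S phase, was lower (-1.46 and -1.08), as was Daxx (-0.90 and -0.61). edgeR called 0 genes of these lists for the genotype in either compartment or for the difference between compartments. At an unadjusted p under 0.05 in axons stood 1 of 9 replacement genes, H3f3b (log2 fold change -0.78, adjusted p = 1), and 1 of 20 chaperone genes, Hira (0.49, adjusted p = 1), where 3.88% of all genes did.

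Transcripts of dividing cells were higher in axons too, and those of non-neuronal cells differed by cell type. Of 26 S phase and mitosis genes, 25 were higher in +/+ and 24 in -/- axons, with 0 lower, where 30.1% and 27.5% of all genes were higher. E2f1, a transcription factor of S phase entry, rose by 1.98 and 2.15, Cdk2 by 2.66 and 2.40, and Gins2, part of the replicative helicase, by 2.82 and 2.82. The summed level of the list was 740.4, 562, 781 and 712 CPM in +/+ and 656, 709.6, 857 and 808 CPM in -/- somatodendritic libraries. In +/+ axons it was 2965, 2823, 4030.0 and 1165, and in -/- axons 805, 4097, 5526 and 3101, so that the pair of libraries low in H2A was the lowest here too. They were the 2 lowest axonal libraries for 25 of the 26 genes, 6 of 9 replacement, 7 of 20 chaperone and 3 of 19 histone processing genes, against 9.46% of all genes. Among the markers tested this held for 5 of 5 of oligodendroglia or Schwann cells, 2 of 8 of astrocytes or radial glia, 0 of 8 of fibroblasts or pericytes and 0 of 5 each of microglia, motoneurons and neurons in general.

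Of 8 astrocyte or radial glia markers, 6 were higher in +/+ and 4 in -/- axons, led by Vim (3.57 and 3.28) and Fabp7 (2.10 and 1.84). Their summed level was 1078 to 1530.1 CPM in +/+ and 1055 to 2252 CPM in -/- somatodendritic libraries, and 3588 to 5990.5 and 3262 to 5226 CPM in axonal ones. Of 8 fibroblast or pericyte markers, 2 were higher in both genotypes, Acta2 (5.17 and 5.26) and Pdgfrb (3.46 and 3.02), with sums of 76.8 to 716 and 124 to 1324 CPM in somatodendritic and 1065 to 10259.5 and 1952 to 9390.5 CPM in axonal libraries. Olig1 alone was higher among 5 oligodendroglia or Schwann cell markers tested, and 0 of 5 microglia markers passed in either direction. Apart from the astrocyte or radial glia list, these shares were at or below those over all genes. The 5 pan-neuronal markers summed to 4208 to 5754 CPM in +/+ and 3550.2 to 5888 CPM in -/- somatodendritic libraries, and to 348 to 2073 and 252 to 2827 CPM in axonal ones. What part dividing or non-neuronal cells had in the histone levels was not tested.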

How the data were processed

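RNA was measured in 16 libraries, 4 for each genotype and compartment, grouped by the sample titles. RNA was reverse transcribed with an oligo-dT primed SMART-Seq v4 kit, with a smaller reaction volume for somatodendritic and more PCR cycles for axonal samples. Per the submitters' processing notes, STAR 2.7.2b, featureCounts 1.6.4 (Subread) and DESeq2 1.24.0 were used on GRCm39. The authors deposited estimated counts, that is, featureCounts values in which a read with several alignments or genes enters as a fraction, without normalization. Reads that match many places may have been dropped by the aligner, and the reverse strand setting was used although the kit as described does not mark strand, so reads of a gene and of an antisense partner cannot be told apart.

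Counts were rounded and analysed in R 4.3.3 with edgeR 4.0.16 and limma 3.58.1. Genes were filtered by expression per group, scaled by TMM, and fitted with a mean per group over all 16 libraries by the quasi-likelihood test, two-sided, with Benjamini-Hochberg adjustment over 19964 genes and a threshold of 0.05. The standard error is the log2 fold change divided by the square root of F. Family sums used the fractional counts, and their differences carry no test. The authors describe 4 biological replicates. The main fit treated the 16 libraries as separate samples, so its p values take no account of the pairing of compartments given next. Sequences were searched with Python 3.11.15 in the GRCm39 reference with GENCODE gene models, which matched all 69 genes by symbol and strand. Stop codons and coding sequences came from these models.

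Equal replicate numbers paired the compartments, since deviations from the group means correlated at 0.105 to 0.241 in +/+ and at 0.175 to 0.508 in -/- motoneurons, each library best with its own number. Blocked values stand beside results they change.

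The members and lists were chosen with earlier results of these data known. Named genes are the 4 most abundant of each family, up to 10 with the largest change per contrast, H1f0 and H1f10, and up to 4 of each list by p. H1f3, H1f5, H2ac20, H4c3, H4c18, Slbp and Macroh2a2 were named after their values were seen. Alternatives were RLE factors, library totals, no filter, at least 10 counts in each library of a group, fractional counts, DESeq2 1.42.0, fits of only the groups compared, the block, pseudogenes added to the sums and each library left out. Leaving out both libraries low in H2A was added after the data were seen. The model was tested on simulated data.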

Additional observations from a re-analysis of the deposited data

Results flagged for a closer look

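In 7 of the 100 sets of 4 libraries looked at, 1 library lay far from the other 3, where chance gives about 1 in 20. Each is described by its gap to the nearest library divided by the range of the 4, which had to exceed Dixon's critical value for 4 libraries. The summed H2A level of -/- somatodendritic replicate 1 was 3.11 CPM, against 9.54 to 10.8 CPM in the other 3 libraries (ratio 0.837). H1f10 was at 10.6 CPM in +/+ somatodendritic replicate 1, against 5.99 to 6.52 CPM (0.883), and at 7.12 CPM in -/- somatodendritic replicate 4, against 6.67 to 6.74 CPM (0.835). H1f4 was at 0.419 CPM in -/- somatodendritic replicate 3, against 0.729 to 0.779 CPM (0.861). H3c6 stood at 0.0858 CPM in -/- somatodendritic replicate 4, against 0.0412 to 0.0433 CPM (0.952), and at 0.552 CPM in -/- axonal replicate 1, against 0.373 to 0.398 CPM (0.860). H4c8 was at 0.331 CPM in +/+ somatodendritic replicate 3, against 0 to 0.0450 CPM (0.864). The somatodendritic H3c6 value rests on 2 counts, the axonal one on 19 and that of H4c8 on 8.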

How the results depend on the processing

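The number of histone genes called higher in axons stayed within 1.5 times of its main value under each alternative, at 29 to 44 in +/+ and 30 to 54 in -/- motoneurons. The lowest counts came from fits of only the groups compared, which tested 31 and 32 members, and the highest from DESeq2, which tested 62. Without 1 library the counts were 39 to 44 and 42 to 45. The block left 39 of the 42 calls in +/+ and 41 of the 45 in -/- motoneurons, where it added H2bc21, and it changed no call other than those named. Library totals moved the median of all genes by 0.15 in +/+ and 0.12 in -/- compartment comparisons on the log2 scale, and no member called in the compartment comparisons changed direction. Genotype and interaction calls were 0 under every alternative. Between genotypes, equal numbers did not pair the libraries (correlations from -0.0458 to 0.359 in somatodendritic and from 0.00946 to 0.677 in axonal libraries), and a block made 0 calls among the members.

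Without the expression filter the adjusted p in +/+ axons was 0.0588 for H1f0 and 0.0776 for H3c14, and that of H3c14 in -/- axons was 0.0687. H4c17 passed in +/+ axons with RLE factors (adjusted p = 0.0479), library totals (0.0393), fractional counts (0.0362) and DESeq2 (0.0390), which also called H2bc21 in -/- axons (0.0473). Among single genes, signs turned only for values that did not pass. Without 1 library H1f10 ranged from -0.29 to 0.11 in +/+ and from -0.0866 to 0.223 in -/- axons, and was -0.0433 in -/- axons under the block. Genotype values ranged from -0.0934 to 0.392 and from -0.614 to 0.0138 for H2bc4 in somatodendritic and axonal libraries, from -0.52 to 1.06 and from -0.0591 to 0.738 for H3c4, and from -0.24 to 0.34 for H4c4 in axons, where the block gave -0.0424. Members at a few counts per library, among them most H3 and H4 genes, are limited by depth.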
